A study of Mus musculus with 12 samples.

Results

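*Foxl2*, *Wt1*, *Gata4*, *Nr5a1*, *Nr5a2*, *Amh*, *Amhr2*, *Fshr*, *Inha* and *Gatm* are 10 genes that mark the granulosa cell lineage of the ovary, the somatic cells that enclose the oocyte. They were taken from the deposited count table by matching Ensembl identifiers to these symbols, which gave 10 of the 55401 genes in the table, by a rule that names the symbols and uses no measured value, although the symbols were chosen with earlier results of these data known. The table holds 12 RNA sequencing libraries of mouse oocytes cut out of ovary sections with a laser. There were 3 libraries from each of 4 groups, namely oocytes of primordial follicles (PrF) and of primary follicles (PF), each from control ovaries and from ovaries exposed to dorsomorphin (DM), an inhibitor of the energy sensor AMPK. All groups came from C57Bl/6j x CBA/J mice, and the study's methods describe ovaries of juvenile females that were cultured for some days with DM or with its solvent DMSO, then fixed, embedded and stained. The sample labels call the control treatment sham and the material in vivo. Each library pooled oocytes of one stage from several sections and was amplified before sequencing, and a laser cut through a thin section can take somatic cytoplasm that lies against the oocyte. The study calls the 3 libraries of a group biologically independent, but the sources used here do not say which ovaries each drew on, so PrF and PF libraries of a treatment may share ovaries.

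Granulosa cells arise from the supporting cell precursors of the gonad. In a primordial follicle they are flat and do not divide, and on activation they become cuboidal and begin to multiply around the growing oocyte. FOXL2, WT1, GATA4 and the nuclear receptors NR5A1 and NR5A2 are the transcription factors that set up and hold this cell fate and its hormone programme. Anti-Müllerian hormone (AMH) and inhibin are secreted by the granulosa cells of growing follicles, and the receptors AMHR2 and FSHR let these cells respond to AMH and to follicle-stimulating hormone. GATM is the enzyme of the first step of creatine synthesis.

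Depth was between 14034586 and 42639326 counts per library, and values are given as CPM, the counts scaled to a common total per library. Libraries of a group differed widely from each other, with 4206 to 10687 genes over 3 counts and a correlation of log2 CPM within groups from 0.14 to 0.52. The 100 most abundant genes took 24.3% to 51.2% of the counts, and this share was highest in PF control 3, PF DM 2 and PF DM 3. Counts came from amplified RNA without molecular identifiers, so limits from counting cover counting error only.

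**Figure D1:**
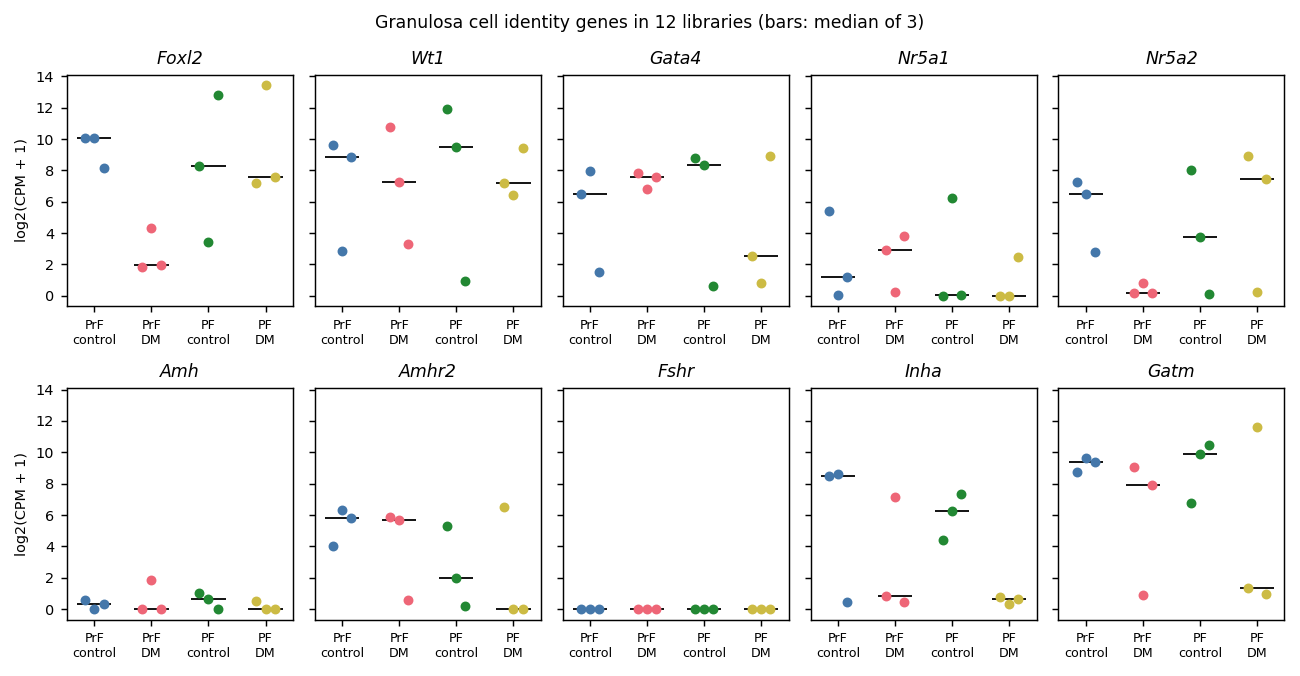
Level of each of the 10 genes in the 12 libraries as log2(CPM + 1), with the 3 libraries of a group drawn from left to right in the order of their replicate numbers and a bar at their median. *Foxl2* and *Nr5a2* in PrF, and *Inha* in PF, are the genes whose DM libraries all lie under the control libraries of the same stage, and *Fshr* is at 0 throughout.

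The promoter of *Nr5a2*, a gene on which a comparison of DM with control turned, is printed here with that of *Amhr2*, whose window held a match to a nuclear receptor motif. Each runs from 250 bases before to 50 bases after a RefSeq start on GRCm38.p6, 5′ to 3′ on the strand of the gene, and capitals mark a matched motif. RefSeq gave such a window for 6 of the 10 genes, and *Wt1*, *Amh*, *Gata4* and *Nr5a1* are named only. The windows of *Foxl2* and *Inha* start after the annotated 5′ end of the gene, inside it, and are not printed.
*Nr5a2* (chr1:136960399-136960698, - strand, upstream start): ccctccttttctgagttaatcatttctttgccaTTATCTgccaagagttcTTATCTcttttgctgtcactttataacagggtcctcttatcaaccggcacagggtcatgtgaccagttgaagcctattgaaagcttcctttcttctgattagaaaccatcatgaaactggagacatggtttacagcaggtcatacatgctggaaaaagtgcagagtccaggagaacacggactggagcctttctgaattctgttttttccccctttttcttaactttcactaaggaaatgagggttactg
*Amhr2* (chr15:102445117-102445416, + strand): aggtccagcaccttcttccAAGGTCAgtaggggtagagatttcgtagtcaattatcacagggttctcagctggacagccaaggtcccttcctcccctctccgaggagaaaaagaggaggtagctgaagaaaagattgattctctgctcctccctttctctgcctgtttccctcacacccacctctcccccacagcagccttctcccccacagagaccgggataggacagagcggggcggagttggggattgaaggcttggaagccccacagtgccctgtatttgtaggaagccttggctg
5 motifs were searched on both strands. AAGGTCA, the core of the motif of NR5A receptors, was found in *Amhr2* at -231 from the start and in 4.71% of 32544 RefSeq promoters of the same length. The GATA factor motif was searched as AGATAA and was found in its reverse complement in *Nr5a2* at -217 and -200 and in 11.2% of the promoters. The longer NR5A motif TCAAGGTCA, which contains the core, is in 0.412% of all promoters. The forkhead motif TGTTTAC is in 3.66% and the cyclic AMP response element TGACGTCA in 1.80%. These last 3 runs of letters were not in the windows of the 6 genes. A match is a run of letters and not a binding site.

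Of the transcription factors, *Foxl2* (ENSMUSG00000050397.4, single-exon gene, chr9:98955288-98958543, + strand) is needed to keep granulosa cells from taking on a Sertoli cell fate. It had 1075, 1053 and 278 CPM in PrF control libraries 1, 2 and 3, against 2.54, 18.8 and 2.90 CPM in PrF DM. In PF control it had 316, 9.62 and 7291 CPM, and in PF DM 148, 11123 and 194 CPM. The PrF control libraries were all far above the PrF DM libraries, while in PF a single library of each treatment stood far above the other two and the groups overlapped. In PF DM 2, *Foxl2* was the gene of rank 5 by count among all genes, and in PF control 3 it had rank 19. *Foxl2os*, on the opposite strand, shares 12 bases with it, and since the strand of counting is not stated, reads there could not be told apart, but *Foxl2os* had at most 13 counts.

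*Wt1* (ENSMUSG00000016458.15, chr2:105126529-105173616, + strand) encodes a zinc finger factor of supporting cells from the early gonad on, which the ovarian surface also makes. It had 791, 6.26 and 465 CPM in PrF control and 1761, 155 and 8.93 CPM in PrF DM. In PF control it had 3937, 729 and 0.900 CPM, and in PF DM 143, 86.5 and 683 CPM. All 4 groups overlapped, and *Wt1* was at rank 13 of all genes in PF control 1 but under 10 CPM in a library of 3 of the groups. *Gata4* (ENSMUSG00000021944.15, chr14:63198922-63271692, - strand), a zinc finger factor that acts with NR5A1 on promoters of gonadal genes, had 89.6, 253 and 1.92 CPM in PrF control, 225, 112 and 191 CPM in PrF DM, 449, 329 and 0.546 CPM in PF control and 4.73, 0.75 and 482 CPM in PF DM. The PrF DM libraries lay close together, and each other group held both high and very low libraries.

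*Nr5a1* (ENSMUSG00000026751.14, chr2:38692656-38714542, - strand), which encodes steroidogenic factor 1, had 41.3, 0.0539 and 1.26 CPM in PrF control and 6.57, 0.172 and 13.4 CPM in PrF DM. It had 0, 75.6 and 0.0321 CPM in PF control and 0, 0 and 4.56 CPM in PF DM. It was over 3 counts in 7 of the 12 libraries. *Nr5a2* (ENSMUSG00000026398.14, chr1:136842571-136960448, - strand), which encodes the related receptor LRH-1 that granulosa cells use in ovulation and luteinization, had 155, 90.2 and 5.95 CPM in PrF control against 0.131, 0.774 and 0.143 CPM in PrF DM. In PF control it had 261, 12.5 and 0.0964 CPM, and in PF DM 491, 0.164 and 171 CPM. The PrF DM libraries held 5, 27 and 3 counts, all fewer than the 90 counts of the lowest PrF control library, and the PF groups overlapped.

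Of the hormones and receptors, *Inha* (ENSMUSG00000032968.4, chr1:75507077-75510366, + strand), the alpha subunit shared by the inhibins, was the only one over 100 CPM in any library. It had 355, 387 and 0.397 CPM in PrF control and 0.785, 141 and 0.380 CPM in PrF DM. In PF control it had 20.6, 75.1 and 159 CPM, against 0.691, 0.235 and 0.542 CPM in PF DM. All PF DM libraries were under all PF control libraries, and in PrF both treatments held high and low libraries.

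*Amhr2* (ENSMUSG00000023047.11, chr15:102445367-102454633, + strand), the type II receptor of AMH, had 15.6, 79.9 and 55.5 CPM in PrF control, 58.1, 51.0 and 0.475 CPM in PrF DM, 38.3, 2.99 and 0.129 CPM in PF control and 91.6, 0.0235 and 0.0285 CPM in PF DM. The last 2 of these values are 1 count each. *Amh* (ENSMUSG00000035262.5, chr10:80805243-80807648, + strand), its ligand, had 20, 0 and 4 counts in PrF control, 0, 89 and 0 in PrF DM, 34, 8 and 0 in PF control and 12, 0 and 0 in PF DM, which is at most 2.55 CPM. *Fshr* (ENSMUSG00000032937.5, chr17:88984952-89200675, - strand), the receptor of follicle-stimulating hormone, had 0 counts in all 12 libraries. A count of 0 allows up to 3 counts, or 0.0704 to 0.214 CPM at these depths.

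*Gatm* (ENSMUSG00000027199.14, chr2:122594467-122611303, - strand), the enzyme of the list, had 436, 801 and 667 CPM in PrF control and 546, 0.860 and 242 CPM in PrF DM. It had 108, 935 and 1427 CPM in PF control and 1.53, 3088 and 0.969 CPM in PF DM. The control libraries were all over 100 CPM, and the DM groups held both high libraries and libraries near 1 CPM, so that the treatments overlapped at each stage.

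**Figure D2:**
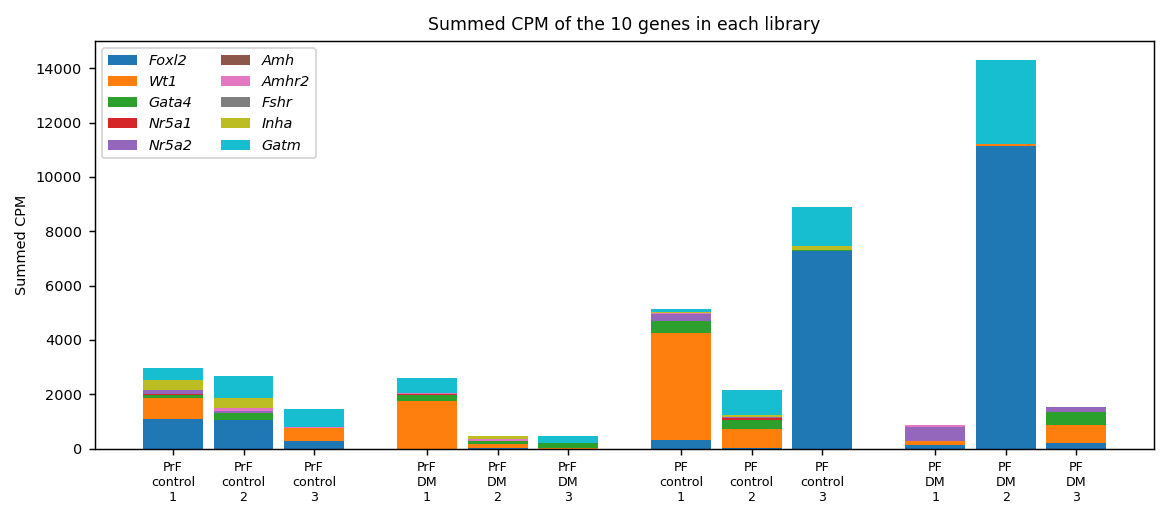
Summed CPM of the 10 genes in each library, stacked by gene, with the 3 libraries of a group side by side. *Foxl2* fills most of PF control 3 and PF DM 2, *Wt1* most of PrF DM 1 and PF control 1, and the sums run from 459 to 14299 CPM.

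Per length, *Gatm* had the highest median level over the 12 libraries, at 164 CPM per kb of exon, followed by *Foxl2* at 72.4, *Wt1* at 50.02, *Gata4* at 38.8, *Amhr2* at 13.5, *Inha* at 7.26 and *Nr5a2* at 1.56 CPM per kb. *Nr5a1*, *Amh* and *Fshr* had medians of 0.168, 0.0792 and 0 CPM per kb. The first 4 of these overlapped widely, as each ranged over more than 100 times between libraries. *Foxl2*, *Wt1*, *Gata4*, *Inha* and *Gatm* were over 3 counts in all 12 libraries, and a median gene of the 10 had 41.4% of its summed CPM in 1 library. The same share was 47.6% for the 6199 genes over 3 counts in at least 6 libraries.

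Which of the 10 genes led differed between libraries of the same group. *Foxl2*, *Foxl2* and *Gatm* had the highest CPM in PrF control libraries 1 to 3, and *Wt1*, *Wt1* and *Gatm* in PrF DM. *Wt1*, *Gatm* and *Foxl2* led in PF control, and *Nr5a2*, *Foxl2* and *Wt1* in PF DM. *Foxl2* and *Gata4* were both at 100 CPM or more in 3 libraries, although at least 1 of them was in each of the 12. The sum of the 10 genes was 2368 ± 788 CPM in PrF control, 1180 ± 1229 CPM in PrF DM, 5393 ± 3363 CPM in PF control and 5572 ± 7565 CPM in PF DM (mean ± SD, n = 3 each), and the ranges of all 4 groups overlapped. The mean of PF DM ran from 1209 CPM, without PF DM 2, to 7917 CPM with one library left out, and that of PrF DM from 471 CPM, without PrF DM 1, to 1541 CPM. The scaling moved these means too, with 1277, 872, 12191 and 20270 CPM, in the same order of groups, on TMM-scaled library sizes and 699, 580.0, 38681 and 67807 CPM with the size factors of DESeq2. In the order of the group medians, neighbouring groups overlapped for every gene of the list but *Foxl2*, whose lowest groups, PF DM and PrF DM, did not. In such bulk libraries, fewer granulosa cells in the cut and less RNA per cell cannot be told apart.

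**Figure D3:**
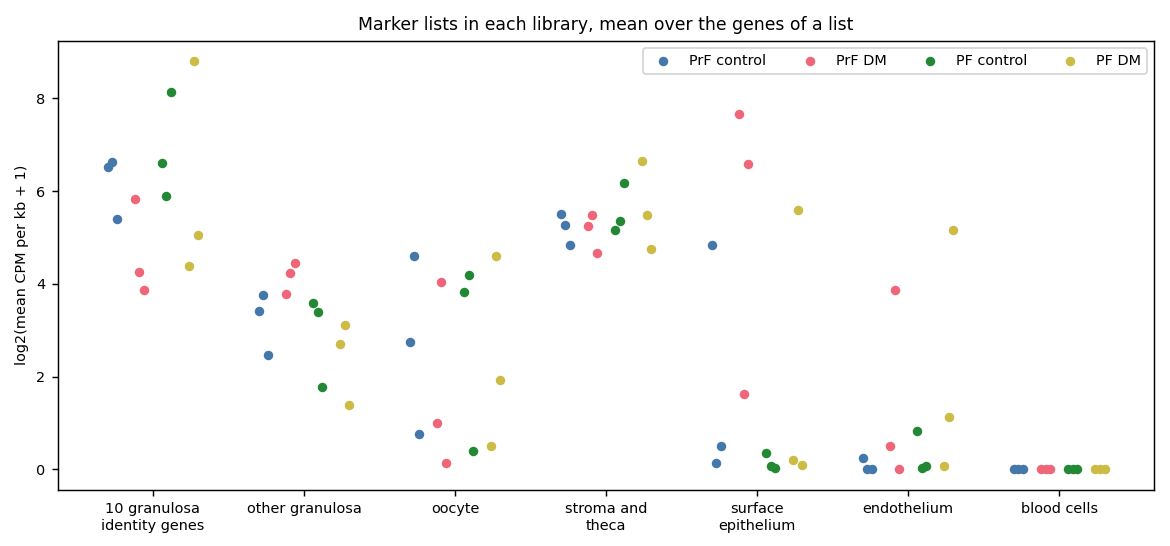
Mean CPM per kb over the genes of each marker list in each library, as log2(value + 1), with points for single libraries coloured by group (PrF or PF, control or DM). The oocyte list lies under the 10 granulosa cell identity genes in all 12 libraries. The stroma and theca list lies under them in 9 of 12 and the surface epithelium list in 10. The endothelium list and the other granulosa list each lie under them in 11.

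The libraries are labelled as oocytes, so the 10 genes were set beside markers of the oocyte and of other ovarian cells. The mean level over 16 oocyte genes was 0.0980 to 23.4 CPM per kb, with a median of 4.26, and that over the 10 granulosa cell identity genes was 13.6 to 446 CPM per kb, with a median of 57.2. The oocyte mean was the lower in 12 of 12 libraries. The list of 24 other granulosa and pregranulosa genes had a mean of 1.61 to 20.9 CPM per kb, with a median of 9.58. This list lay under the 10 genes in 11 of 12 libraries. Against these 24 genes, the oocyte mean was higher in PrF control 2, PF control 1 and 2, and PF DM 2 and 3. It was lower in the other libraries. *Ddx4*, a germ cell RNA helicase, was over 3 counts in all 12 libraries but at 1 CPM or more in only 8. It ran from 0.392 to 1113 CPM, with a median of 39.2 CPM. *Kit*, the oocyte receptor of KIT ligand, had a median of 35.6 CPM and *Gdf9*, a growth factor secreted by the oocyte, of 2.56 CPM. *Oosp1* had at most 12 counts and *Bmp15* at most 38.

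Stroma and theca genes were present in every library, led by the collagens *Col1a1*, *Col1a2* and *Col3a1* with medians of 1327, 1088 and 565 CPM, and the list mean was 24.2 to 99.6 CPM per kb. Of the theca genes proper, *Insl3* was at 0 in every library, and *Cyp17a1* and *Star* had at most 5 and 11 counts. Endothelial genes were at 0.00685 to 35.0 CPM per kb, with *Kdr*, *Tie1* and *Cdh5* at medians of 0.273, 0.102 and 0.0548 CPM and *Emcn* at 0. *Kdr* reached 609 CPM in PrF DM 2 and *Tie1* 860 CPM in PF DM 3. In PF DM 3 the endothelial mean lay above that of the 10 genes, at 35.0 against 32.4 CPM per kb. Of the blood cell genes, the 4 haemoglobin genes were at 0 in every library and *Ptprc* had at most 7 counts. Surface epithelium genes were at 0.0217 to 200.3 CPM per kb, and *Krt19* and *Upk3b* had medians of 1.34 and 0.451 CPM, and *Upk1b* of 0. This list lay above the 10 genes in PrF DM 1, at 200.3 against 55.6 CPM per kb, and in PrF DM 3, at 95.5 against 13.6. In PrF DM 1, *Krt19* had 1459 CPM and *Wt1*, which the ovarian surface also makes, 1761 CPM. The part of surface cells in the values of *Wt1* was not tested.

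Of 24 other genes of granulosa and pregranulosa cells, the gap junction gene *Gja1* had the highest median, at 336 CPM, before the cell cycle inhibitor gene *Cdkn1b* at 17.3 CPM and the homeobox gene *Irx3* at 12.7 CPM. *Cyp19a1*, the aromatase of antral follicles, was at 0 in all libraries. Of 16 partners of AMH, inhibin and follicle-stimulating hormone signalling, *Gnas*, which encodes the G protein subunit that couples FSHR to cyclic AMP, had a median of 3673 CPM, and *Smad3* and *Smad4*, signal transducers of the TGF-beta family, had 1065 and 365 CPM. Of 4 genes of creatine synthesis and use, *Ckb* (brain-type creatine kinase) had a median of 171 CPM, the creatine transporter gene *Slc6a8* of 0.0504 CPM and *Gamt*, the enzyme after GATM, of 0. *Gja1*, *Gnas*, *Smad3*, *Smad4* and *Ckb* are also made by other cells of the ovary.

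The genes whose CPM over the 12 libraries ranked most like *Gatm* among 6199 genes were *Cul1*, a scaffold of ubiquitin ligases, with a Spearman rho of 0.867, *Max*, the partner of MYC, with 0.860, and *Slc4a3*, an anion exchanger, with 0.860. The 8 other genes of the list with any count had a rho with *Gatm* from -0.49 to 0.45, with *Foxl2* the highest. The 12 points share libraries, depth and groups, and the rho values are descriptions.

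The first comparison asked how the 10 genes in oocytes of primordial follicles differed between DM and control. *Foxl2* was lower in all 3 DM libraries than in every control library, by 6.07 on the log2 scale, and so was *Nr5a2*. No other gene of the list separated the groups, and *Wt1* and *Gata4*, with *Nr5a1*, had fitted values above 0. The p-values measure only the spread between these libraries. None of the 10 genes passed edgeR's quasi-likelihood test after Benjamini-Hochberg adjustment over 6699 genes.

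8 of the 10 genes passed the filter on low counts in this comparison, and *Amh* and *Fshr* did not. The log2 fold change of *Foxl2* was -6.07 (SE 2.54, n = 3 and 3, adjusted p = 0.644 in edgeR's quasi-likelihood test after Benjamini-Hochberg correction) and that of *Nr5a2* -7.18 (SE 3.90, adjusted p = 0.658 by the same edgeR test). 0 of 8 had an adjusted p under 0.05, beside 0.0149% of all genes tested, and 1 of 8 an unadjusted p under 0.05, beside 7.33%. 2 of 8 did not overlap between the groups, beside 13% of all genes tested. DESeq2 gave *Foxl2* an adjusted p of 0.0322 and *Nr5a2* of 0.0131, and gave none for 2 of the 10 genes. It called 686 genes in all, of 16334 with a count in these libraries. The median log2 fold change of the 8 genes was -0.61, beside 0.13 for all genes tested, and 3 of 8 were above 0, beside 52%. *Wt1* had a log2 fold change of 1.22 (SE 1.82), *Gata4* of 0.96 (SE 2.57) and *Nr5a1* of 0.16 (SE 2.73), and the value of *Nr5a1* was below 0 when libraries were scaled by size alone or with TMMwsp. *Amhr2*, *Gatm* and *Inha* had -0.27, -0.94 and -1.83 on the log2 scale with an SE of 1.87 to 2.99. With one library left out in turn, the value ran from -7.64 to -5.36 for *Foxl2* and from -8.57 to -6.65 for *Nr5a2*, whereas *Wt1* turned to -1.46 without PrF DM 1 and *Inha* went to -8.26 without PrF DM 2.

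The marker lists of other cells were compared between the same groups. The summed CPM of the 24 other granulosa and pregranulosa genes was 472 to 1845 in control and 1844 to 2030 in DM, that of the stroma and theca genes was 4247 to 4637 in control and 2484 to 4618 in DM, and that of the oocyte genes was 32.3 to 1281 in control and 7.46 to 1076 in DM. That of the surface epithelium genes was 0.998 to 206 in control and 17.6 to 1511 in DM. All 4 sums overlapped between the groups, that of the other granulosa and pregranulosa genes by less than 1 CPM, and edgeR called no gene of these lists. Gene by gene, 2 of the 10 oocyte genes that passed the filter were above 0, beside 52% of all genes tested. The other 8 were below 0, and the median log2 fold change was -1.64. 3 of 10 did not overlap, beside 13% of all genes tested. These were *Zp2*, a zona pellucida gene, *Nobox*, an oocyte transcription factor gene, and *Nlrp5*, a maternal effect gene, which were lower in every DM library and had at most 155 counts in any PrF library. Of the surface epithelium genes, *Upk3b* and *Krt19* were tested and had log2 fold changes of 6.01 (SE 3.43) and 4.47 (SE 2.15), and *Upk3b* was higher in every DM library. The part of these cells in the values of *Foxl2* and *Nr5a2* was not tested. Of 15 other granulosa and pregranulosa genes that passed the filter, 8 had a log2 fold change above 0 and 7 below, with a median of 0.19. None was called by edgeR, and DESeq2 called 1 of the 24. 2 of 15 did not overlap between the groups, beside 13% of all genes tested. *Foxo1* was at 2.91 to 38.3 CPM in control and 0.143 to 1.05 CPM in DM. *Zfpm2* was at 0.397 to 62.8 CPM in control and 0 to 0.340 CPM in DM. Of the 12 signalling partners tested, 7 were above 0 and 5 below. *Smad4* was lower in every DM library with -9.33 on the log2 scale (SE 2.66, adjusted p = 0.412 in edgeR's quasi-likelihood test after Benjamini-Hochberg correction), and *Ckb* with -2.32 (SE 2.26). *Gja1* had 0.19 (SE 1.68) and *Gnas* 0.61 (SE 0.75), both with overlapping groups.

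**Figure D4:**
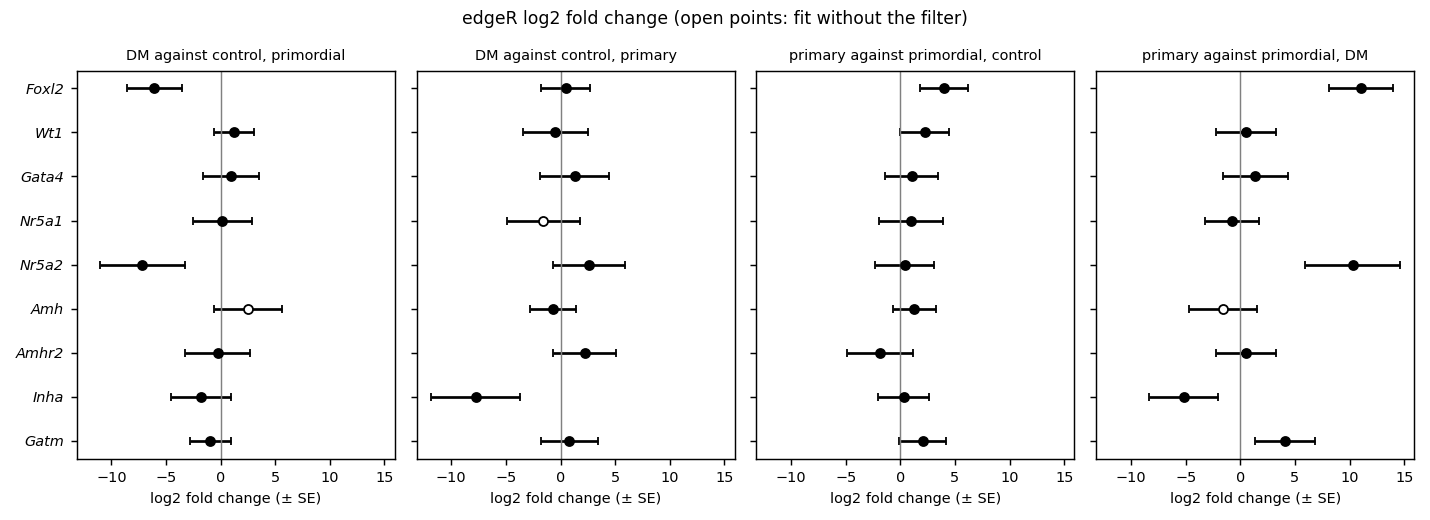
Fitted log2 fold change and its SE for 9 of the 10 genes in the 4 comparisons of 2 groups (3 libraries each), with open points for genes that passed no filter on low counts and *Fshr* left out because it had no count. *Foxl2* and *Nr5a2* lie lowest in DM against control in PrF, at -6.07 and -7.18, *Inha* lies lowest in PF, at -7.77, and *Foxl2* lies highest in PF against PrF under DM, at 11.03.

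In oocytes of primary follicles, the comparison of DM with control separated *Inha* and no other gene of the list. *Inha* was at 20.6 to 159 CPM in control and at 0.235 to 0.691 CPM in DM, a log2 fold change of -7.77 (SE 4.08, adjusted p = 0.396 in edgeR's quasi-likelihood test after Benjamini-Hochberg correction over 4181 genes). *Foxl2* and *Nr5a2*, the genes that separated the groups in PrF, had fitted values of 0.47 (SE 2.24) and 2.61 (SE 3.32) here. The other transcription factors also had an SE larger than their change, with 1.28 (SE 3.18) for *Gata4* and -0.48 (SE 2.96) for *Wt1*.

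*Nr5a1* and *Fshr* did not pass the filter. 0 of the 8 tested genes were called by edgeR, beside 0% of all genes, 0 had an unadjusted p under 0.05, beside 12.2%, and 0 were called by DESeq2, which gave no adjusted p for 8 of the 10 genes, *Inha* among them. 1 of 8 did not overlap between the groups, beside 13%. The median log2 fold change of the 8 genes was 0.65, beside 0.31 for all genes tested, and 5 of 8 were above 0, beside 52.6%. That median of all genes was 2.12 with the size factors of DESeq2 and -0.96 with library size alone. The sign of *Gata4* turned under library size alone (-0.79), and that of *Wt1* (1.92) and *Amh* (1.56) under the size factors of DESeq2 used in edgeR, whereas *Inha* stayed below 0 under each scaling. *Inha* ran from -8.35 to -4.55 with one library left out in turn, the latter without PF control 3, and *Foxl2* from -4.86, without PF DM 2, to 7.13, without PF control 3. *Gatm* had 0.82 (SE 2.64) and ran from -9.86, without PF DM 2, to 3.81. *Amhr2* had 2.21 (SE 2.88) and *Amh* -0.69 (SE 2.07).

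The sums of the other lists overlapped between the PF groups. The other granulosa and pregranulosa genes had 598 to 1697 CPM in control and 328 to 1732 CPM in DM, the oocyte genes 13.9 to 1410 and 56.6 to 1118 CPM, and the stroma and theca genes 3118 to 6494 and 3091 to 13076 CPM. Their part in the value of *Inha* was not tested. Of the 7 other granulosa and pregranulosa genes tested, 3 were above 0 and 4 below. 1 of 7 did not overlap between the groups, beside 13% of all genes tested. This was *Gja1*, lower in each DM library by a narrow gap, with -1.39 (SE 3.05). Its highest DM library held 329 CPM and its lowest control library 331 CPM. Of the 11 signalling partners, 9 were above 0.

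Between the stages in control ovaries, no gene of the list separated PF from PrF. *Foxl2* had a log2 fold change of 3.99 (SE 2.15) for PF against PrF, which became -2.11 without PF control 3. The fold change of *Inha* was 0.29 (SE 2.35) and turned to -1.57 when libraries were scaled by size alone. *Wt1* had 2.23 (SE 2.23), or -0.24 without PF control 1, *Gatm* 2.03 (SE 2.15), or -0.61 without PF control 3, and *Amhr2* -1.88 (SE 3.03). *Amh*, which rises as follicles grow in the intact ovary, had 1.28 (SE 1.95) from at most 34 counts.

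Of the 10 genes, 9 passed the filter, and 0 of 9 were called by edgeR's quasi-likelihood test after Benjamini-Hochberg adjustment, beside 0% of 6726 genes. At an unadjusted p under 0.05 there were 0 of 9, beside 6.44%, and DESeq2 called 0 but gave no adjusted p for 6 of the 10 genes. 0 of 9 were without overlap, beside 9.69%. 8 of 9 had a value above 0, beside 45.7% of all genes tested, with a median of 1.02 against -0.31 for all genes. The fitted signs were not those of the group medians throughout. The median CPM was lower in PF than in PrF for *Foxl2*, *Nr5a1*, *Nr5a2*, *Amhr2* and *Inha*. It was higher for *Wt1*, *Gata4*, *Amh* and *Gatm*. With a single library left out, the sign could turn for *Foxl2*, *Wt1*, *Nr5a2*, *Inha* and *Gatm*. Of the 14 other granulosa and pregranulosa genes tested, 6 were above 0 and the median was -0.59. 2 of 14 were without overlap, beside 9.69% of all genes tested. These were *Cdkn1b* and *Wnt4*, lower in every PF library. *Cdkn1b* was at 33.5 to 119 CPM in PrF control and 0.193 to 8.83 CPM in PF control. The list of 16 oocyte genes had a median of 0.71 over 11 genes tested and the stroma and theca list of 1.40 over 9.

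Under DM, *Foxl2* was higher in all 3 PF libraries, at 148 to 11123 CPM, than in the PrF libraries, at 2.54 to 18.8 CPM. Its log2 fold change was 11.03 (SE 2.91, adjusted p = 0.286 in edgeR's quasi-likelihood test after Benjamini-Hochberg correction), which ranked 3 by p among 4331 genes. *Nr5a2* had 10.28 (SE 4.33, adjusted p = 0.286 by the same edgeR test), and its groups overlapped because PF DM 2 had 7 counts. *Inha* had -5.16 (SE 3.16), or 1.02 without PrF DM 2, and *Gatm* 4.07 (SE 2.75). This comparison uses the same PrF DM libraries as the comparison with PrF control, so the low values there enter both.

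8 of the 10 genes passed the filter, without *Amh* and *Fshr*. 0 of 8 were called by edgeR, beside 0% of all genes tested. 2 of 8 had an unadjusted p under 0.05, beside 17.2%, and 1 of 8 did not overlap, beside 18.5%. DESeq2 called *Nr5a2* (adjusted p = 1.83e-05) and gave *Foxl2* no adjusted p. With one library left out in turn, *Foxl2* ran from 5.50, without PF DM 2, to 12.45, and its adjusted p fell to 0.0637 at the lowest, without PF DM 3. *Gatm* turned to -6.73 without PF DM 2, the library that alone held *Gatm* at a high level in PF DM. The median over the 8 genes was 0.95, beside 0.35 over all genes, and 6 of 8 were above 0, beside 53.3%. Of the 11 other granulosa and pregranulosa genes tested, 8 were below 0, and 3 of 11 did not overlap, beside 18.5% of all genes tested. These were *Irx3* with -10.08 (SE 4.29), *Cdkn1b* with -8.46 (SE 3.84) and *Krt8*, each lower in every PF DM library than in PrF DM. *Cdkn1b* was also lower in every PF library in control.

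Whether the response to DM differed between the stages was tested as an interaction over all 12 libraries. *Foxl2* had an interaction of 6.75 on the log2 scale (SE 2.73, adjusted p = 0.179 in edgeR's quasi-likelihood test after Benjamini-Hochberg correction over 8500 genes). *Nr5a2* had 10.00 (SE 4.46, adjusted p = 0.213 by the same edgeR test, and adjusted p = 0.00189 by DESeq2). *Inha* had -5.70 (SE 4.09). 9 genes of the list were tested, 0 of 9 passed the edgeR threshold, beside 0% of all genes, and 2 of 9 had an unadjusted p under 0.05, beside 18.9%. 5 of 9 were above 0, beside 47.6%. The interaction of *Foxl2* was 1.03 without PF DM 2 and 13.22 without PF control 3, and that of *Nr5a2* kept to between 9.07 and 14.18 with any one library left out. The different DM values of *Foxl2* and *Nr5a2* in the stages are thus not shown to differ by the edgeR test.

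Over both treatments, *Foxl2* had the smallest p of 7124 genes for PF against PrF, with a log2 fold change of 7.77 (SE 1.94, adjusted p = 0.264 in edgeR's quasi-likelihood test after Benjamini-Hochberg correction). It ran from 5.28 to 9.11 with any single library left out. The median of *Foxl2* was higher in PrF than in PF in control, at 1053 and 316 CPM. Under DM it was lower in PrF, at 2.90 and 194 CPM. PF control 3 and PF DM 2 held 7291 and 11123 CPM, and leaving out a single library never removed both. *Gatm* had 3.33 (SE 1.71), or 0.58 without PF DM 2, and *Nr5a2* 5.46 (SE 4.22), which DESeq2 called with an adjusted p of 0.00862. 0 of 9 genes were called by edgeR, beside 0%, 1 of 9 had an unadjusted p under 0.05, beside 10.1%, and 0 of 9 were without overlap, beside 0.576%. 6 of 9 were above 0, beside 45.5%. Over both stages, DM against control gave *Inha* -4.73 (SE 2.96) and *Foxl2* -2.79 (SE 1.99). 0 of 9 were called by edgeR, beside 0%, 0 of 9 had an unadjusted p under 0.05, beside 11.3%, and 0 of 9 were without overlap, beside 0.716%. 4 of 9 were above 0, beside 44.6%, and DESeq2 called 0 but gave no adjusted p for 7 of the 10 genes. These fits use the same libraries as the single comparisons and add no others.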

How the data were processed

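The deposited values are whole-number read counts per gene, which the authors made by trimming reads with trim_galore, checking them with FastQC, mapping them to mm10 (GRCm38) and counting with featureCounts, without normalization. The paper names TopHat2 as the aligner and the submitters' processing notes name STAR. The paper names an Ensembl gene annotation, and the strand setting of the counting is not given in the sources used here. Labels give library preparation by linear amplification and RNA capture.

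Of 55401 gene identifiers 55141 matched a symbol in a GRCm38 annotation, which also gave positions and exon lengths. A chi-square test of the counts of each pair in a group found none within sampling noise (at least 1588 per degree of freedom). No library was thus a repeat count of another, and each was treated as 1 sample. The test covers counting error only, so it cannot show whether libraries share ovaries. CPM was computed on the total counts, from 14034586 to 42639326 per library.

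Comparisons were DM with control and PF with PrF, each within the other factor and over both, and their interaction. They were fitted on all genes in R 4.3.3 with edgeR 4.0.16 (filterByExpr, TMM, glmQLFit and glmQLFTest, prior count 0.125), Benjamini-Hochberg correction and an adjusted p under 0.05 as the call. The SE is the size of the log2 fold change over the root of its F value, and values of genes that passed no filter come from a fit without it. The code was tested on simulated data with much less spread between libraries than here. That test does not show how the fits behave at the present spread. DESeq2 1.42.0, other scalings, other filters, a prior count of 2, a replicate block and leaving out each library were alternatives.

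The 10 genes and the lists (other granulosa and pregranulosa, signalling partners, creatine, oocyte, stroma and theca, endothelium, blood cells, surface epithelium) were chosen with earlier results of these data known. Named were all 10 genes, from each other list the genes with an adjusted p under 0.05 in edgeR (none) and up to 3 with the highest median CPM, and the 3 genes ranked most like *Gatm*. *Oosp1*, *Bmp15*, *Zp2*, *Nobox*, *Nlrp5*, *Insl3*, *Cyp17a1*, *Star*, *Emcn*, *Ptprc* and *Cyp19a1* were named as markers after their values were seen. *Foxo1*, *Zfpm2*, *Wnt4* and *Krt8* were likewise named after their groups were seen not to overlap. No column of the table was left unused.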

Additional observations from a re-analysis of the deposited data

How the results depend on the processing

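*Foxl2* and *Nr5a2* for DM in PrF and *Inha* for DM in PF kept their sign under every alternative that gave a value. So did *Gata4*, *Inha* and *Gatm* for DM in PrF and *Nr5a2* for DM in PF, although their groups overlapped. The cause of the other changes was not tested. The summed CPM of the 10 genes was 1277 in PrF control, 12191 in PF control and 20270 in PF DM with TMM-scaled library sizes, and 699, 38681 and 67807 with the size factors of DESeq2. For *Amh* and *Fshr*, counts of 0 allow up to 3 counts, and the reason for their low counts was not tested. The spread between the 3 libraries of a group, a biological coefficient of variation of 1.76 to 1.99 over all genes, limits every comparison.

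DESeq2 called 686 for DM in PrF, 718 for DM in PF, 290 for stage in control, 988 for stage under DM, 586 for the interaction, 627 for DM over both stages and 595 for stage over both treatments. An unadjusted p under 0.05 in edgeR gave 491 for DM in PrF, 508 for DM in PF, 433 for stage in control, 746 for stage under DM, 1605 for the interaction, 808 for DM over both stages and 720 for stage over both treatments. The 1 gene called by edgeR for DM in PrF was not called, so that the count was 0, under the size factors of DESeq2, library size alone, no filter, a minimum of 10 counts in every library, or with all 12 libraries in 1 fit. Library size alone gave 1 call for stage in control and 1 for DM over both stages, and the minimum of 10 counts gave 4 for stage in control.

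Of the 10 genes, those that turned in sign are given by setting, as log2 values. Under DESeq2 these were 1.92 (*Wt1*), 0.75 (*Nr5a1*) and 1.63 (*Amh*) for DM in PF, 0.00014 (*Nr5a1*) for stage under DM, 1.35 (*Wt1*) for the interaction, 1.69 (*Nr5a1*) and 0.36 (*Gatm*) for DM over both stages and 0.85 (*Amh*), 0.31 (*Amhr2*) and 0.26 (*Inha*) for stage over both treatments. With the size factors of DESeq2 in edgeR they were 1.92 (*Wt1*), 0.75 (*Nr5a1*) and 1.56 (*Amh*) for DM in PF, 0.0012 (*Nr5a1*) for stage under DM, 1.35 (*Wt1*) for the interaction, 1.68 (*Nr5a1*) and 0.36 (*Gatm*) for DM over both stages and 0.81 (*Amh*), 0.31 (*Amhr2*) and 0.27 (*Inha*) for stage over both treatments. With library size alone they were -1.11 (*Nr5a1*) for DM in PrF, -0.79 (*Gata4*) for DM in PF, -1.57 (*Inha*) for stage in control, -1.15 (*Wt1*), -0.18 (*Gata4*) and -0.30 (*Amhr2*) for stage under DM, -1.30 (*Gata4*) for the interaction, -0.89 (*Wt1*), -0.043 (*Gata4*) and -0.071 (*Amh*) for DM over both stages and -0.67 (*Nr5a1*) for stage over both treatments. With TMMwsp they were -0.075 (*Nr5a1*) for DM in PrF and 0.0081 (*Amh*) for stage over both treatments, without a filter -0.026 (*Nr5a1*) for DM in PrF, and with at least 10 counts in every library -0.050 (*Wt1*) for stage under DM, -0.48 (*Gata4*) for the interaction and -0.30 (*Wt1*) for DM over both stages. A prior count of 2, and all 12 libraries in 1 fit, turned no sign.

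In fits that left out one library each, the number of called genes ranged from 0 to 3 for DM in PrF and from 0 to 4 for stage under DM. For DM in PrF, the log2 value ran from -1.46 to 1.82 (*Wt1*), from -1.26 to 3.83 (*Nr5a1*) and from -0.76 to 0.51 (*Amhr2*). For DM in PF, the log2 value ran from -4.86 to 7.13 (*Foxl2*), from -1.80 to 1.90 (*Wt1*), from -4.92 to 2.20 (*Gata4*), from -1.04 to 0.29 (*Amh*) and from -9.86 to 3.81 (*Gatm*). For stage in control, the log2 value ran from -2.11 to 5.50 (*Foxl2*), from -0.24 to 2.89 (*Wt1*), from -3.87 to 1.07 (*Nr5a2*), from -2.55 to 1.81 (*Inha*) and from -0.61 to 3.36 (*Gatm*). For stage under DM, the log2 value ran from -0.99 to 3.38 (*Wt1*), from -5.06 to 1.78 (*Gata4*), from -1.42 to 0.56 (*Nr5a1*), from -5.81 to 1.02 (*Inha*) and from -6.73 to 4.86 (*Gatm*). For the interaction, the log2 value ran from -3.17 to 1.10 (*Wt1*), from -5.86 to 1.61 (*Gata4*), from -11.82 to 5.69 (*Nr5a1*), from -9.15 to 4.47 (*Amh*), from -6.49 to 5.69 (*Amhr2*), from -7.23 to 0.33 (*Inha*) and from -9.13 to 5.04 (*Gatm*). For DM over both stages, the log2 value ran from -0.83 to 1.71 (*Wt1*), from -1.02 to 2.17 (*Gata4*), from -2.10 to 2.07 (*Nr5a1*), from -4.87 to 0.55 (*Nr5a2*), from -1.93 to 1.83 (*Amh*), from -2.26 to 1.76 (*Amhr2*) and from -3.17 to 0.89 (*Gatm*). For stage over both treatments, the log2 value ran from -0.95 to 2.15 (*Gata4*), from -2.58 to 1.18 (*Nr5a1*), from -0.75 to 2.78 (*Amh*) and from -3.95 to 1.16 (*Inha*).

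Same-numbered libraries of the groups did not deviate together, with correlations of their deviations from the group means of -0.0465 to 0.0492. The labels state no pairing, and none was used in the main fits. As libraries of a group correlated only weakly, these values cannot show whether same-numbered libraries share ovaries. With the replicate number as a block, edgeR called 0 genes for DM in PrF, and the values that turned were -2.97 (*Amh*) for DM in PrF, 0.24 (*Wt1*), -3.97 (*Gata4*), -1.73 (*Amhr2*) and -4.81 (*Gatm*) for DM in PF, -1.02 (*Foxl2*), -2.78 (*Nr5a1*), -2.17 (*Nr5a2*) and -1.64 (*Inha*) for stage in control, -3.38 (*Gata4*), -3.02 (*Amhr2*) and -5.64 (*Gatm*) for stage under DM, -0.18 (*Gatm*) for the interaction, -0.13 (*Amh*), -0.88 (*Amhr2*) and 0.36 (*Gatm*) for DM over both stages and -0.34 (*Nr5a1*) for stage over both treatments.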
